A study of Caenorhabditis elegans with 2 samples.

Results

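Autosomal divergent promoter regions are regions of ZTF-11 enrichment whose summit, the base of highest enrichment, lay in the promoters of protein-coding genes on both strands. Members were taken from the pooled ce11 list by annotation alone. A region counted when it was on chromosomes I to V and its summit fell within a window from 1500 bp before to 500 bp past an annotated 5′ end, for at least 1 gene on each strand. There were 1036 such regions among 20223 pooled regions, of which 16790 were autosomal. The other autosomal regions were 5018 with promoters on 1 strand and 10736 in no promoter. ZTF-11 was mapped by chromatin immunoprecipitation and sequencing (ChIP-seq) in whole L2 larvae of Caenorhabditis elegans, males and females pooled, in 1 group of 2 biological replicates and with no second condition. Both came from strain OP236, which carries the unc-119(ed3) III allele and the wgIs236 transgene, a stably integrated ZTF-11 with GFP and FLAG at its C-terminal end. Whole animals mix every tissue, so the cells in which a region was occupied are unknown, and tagged ZTF-11 from the transgene stands for the protein.

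ZTF-11 is the worm member of the MYT1 family of zinc finger proteins, known as repressors in developing neurons, and in worm neurogenesis it has been described together with the MuvB corepressor. A divergent promoter is a stretch of DNA from which a pair of neighbouring genes is read in opposite directions, so that a single bound factor lies upstream of both. In mammals such pairs often hold housekeeping genes. In worms many annotated 5′ ends are splice-leader sites rather than transcription starts, so a distance to a 5′ end is not always a distance to a start. Each region carries the authors' own score, a signal value relative to a control on a scale that neither labels nor files state, and it serves below to order regions inside a list. The authors also deposited a thresholded set of peaks, kept for their agreement between replicates by the irreproducible discovery rate (IDR).

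The sequences at the summits of the highest members are shown first, because the gene groups and short words described below refer to them. They are the 8 members of highest score on chromosomes II to V whose 5′ ends lie on either side of the summit, each shown from 50 bp before to 50 bp past it, 5′ to 3′ on the plus strand of WBcel235 (the ce11 coordinates, RefSeq sequence), and none overlapped an annotated gene. Capitals mark the words searched for, spelled out further on. The windows are chrII:10563510-10563610 at cdc-48.1, chrIII:10759189-10759289 at tasp-1, chrIV:1094287-1094387 at cct-8, chrIII:1619080-1619180 at hsp-60, chrIV:4749987-4750087 at rpl-20, chrIV:654881-654981 at rpl-15, chrV:10897310-10897410 at sec-61.G and chrIII:8043871-8043971 upstream of spcs-3.
cdc-48.1/C06A1.7: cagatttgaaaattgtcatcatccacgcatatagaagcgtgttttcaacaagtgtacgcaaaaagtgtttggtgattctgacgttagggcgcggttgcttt
tasp-1/K01G5.10: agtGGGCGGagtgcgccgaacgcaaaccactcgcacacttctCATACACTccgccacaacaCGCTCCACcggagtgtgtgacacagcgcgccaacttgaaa
Y55F3AR.2/cct-8: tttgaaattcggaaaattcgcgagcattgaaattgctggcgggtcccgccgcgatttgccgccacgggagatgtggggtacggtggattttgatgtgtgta
Y22D7AL.10/hsp-60: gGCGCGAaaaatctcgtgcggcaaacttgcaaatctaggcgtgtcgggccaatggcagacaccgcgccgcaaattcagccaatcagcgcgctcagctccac
Y17G9B.5/rpl-20/cyc-2.1: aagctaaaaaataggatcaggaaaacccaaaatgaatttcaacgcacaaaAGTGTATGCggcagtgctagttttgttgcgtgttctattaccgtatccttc
rpl-15/K11H12.8: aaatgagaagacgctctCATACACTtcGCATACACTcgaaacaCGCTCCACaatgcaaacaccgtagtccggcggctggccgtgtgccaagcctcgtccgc
sec-61.G/F32D8.13/F32D8.7: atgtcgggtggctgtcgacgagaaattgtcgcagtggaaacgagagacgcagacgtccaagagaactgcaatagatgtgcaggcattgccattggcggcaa
K12H4.5/K12H4.6/spcs-3: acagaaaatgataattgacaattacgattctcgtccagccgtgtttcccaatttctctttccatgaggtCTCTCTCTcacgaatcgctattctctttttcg

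The label "divergent" held for most members but not for all. In 743 of 1036 members (71.7%, 95% Wilson interval 68.9 to 74.4) the summit lay between a minus-strand gene to its left and a plus-strand gene to its right, that is, upstream of both. In 290 others it lay within the first 500 bp of a gene or genes on 1 strand while still upstream of a gene on the other, and in 3 it lay where the heads of both genes overlap. Among the members in the thresholded set, 42 of 45 (93.3%, 82.1 to 97.7) lay between the 5′ ends, against 70.7% (67.8 to 73.5) of the remaining 991. Regions with promoters on 1 strand differed in a like way. Their summit was upstream of the nearest 5′ end in 52 of 55 thresholded ones (94.5%) and in 76.6% of all 5018. By that measure thresholded members had 93.3% and the other members 67.6%. The summit was in the promoters of 2 genes in 883 members, of 3 in 142 and of 4 in 11, and together they covered 1942 of the 17242 autosomal protein-coding genes. Chromosome V held 254 members, chromosome III 225, chromosome I 218, chromosome II 173 and chromosome IV 166.

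Divergent promoter regions entered the authors' thresholded set more often than other regions. The set took 1.04% of all pooled regions and 0.84% of autosomal ones, as the background. It took 45 of the 1036 members, 4.34% (3.26 to 5.76), against 55 of 5018 regions with promoters on 1 strand, 1.10% (0.843 to 1.42), and 41 of 10736 regions in no promoter, 0.382% (0.282 to 0.518). The difference from the regions with promoters on 1 strand was 3.25 percentage points (95% Newcombe interval 2.12 to 4.69), a ratio of 3.96. Regions in 2 promoters of the same strand, described further on, had 3.02%, close to that of members in 2 promoters. Members made up 6.17% of autosomal regions and 31.9% of the 141 autosomal thresholded regions. These intervals count regions and cover counting error only; with 2 replicates of 1 group there is no test over samples.

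On the nuclear chromosomes the thresholded set is the 188 regions of highest pooled score, the lowest at 32.9, so the call and the score are 1 measure and not independent of each other. The median score of members was 12.7 (12.3 to 13), against 11.8 (11.7 to 11.9) with promoters on 1 strand and 11.6 in no promoter, so most members scored much like other regions. The classes parted at the top, where the 90th percentile was 23.9 for members, 17.6 with promoters on 1 strand and 16.7 in no promoter. Within the thresholded set alone the medians were 39.6 (36.6 to 44.1), 40.5 (37.9 to 42.7) and 38.3 (36.3 to 41.5), with overlapping intervals. Ranked by score, 19 of the 50 highest autosomal regions (38%) were members, then 28.6% of ranks 51 to 141 and 20.9% of ranks 142 to 500. Among ranks 10001 to 16790 the share was 4.90%, while regions with promoters on 1 strand kept between 28.7% and 39.6% in every band.

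**Figure D1:**
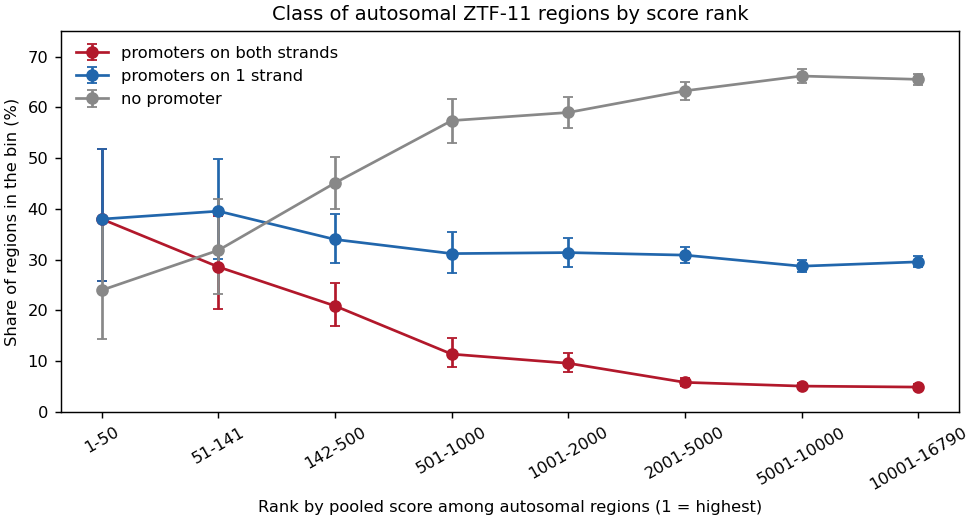
Share of each class (%, vertical axis) among autosomal regions by rank of pooled score (horizontal axis, 1 is highest), with bars for 95% Wilson intervals. The share of regions with promoters on both strands falls from 38% of ranks 1 to 50 to 4.90% of ranks 10001 to 16790, and that of regions in no promoter rises from 24% to 65.5%.

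Members were also found in both replicates more often. The summit lay in a region of both replicate lists in 358 members, 34.6% (31.7 to 37.5), against 25.8% (24.6 to 27.1) of regions with promoters on 1 strand and a background of 25.5% of autosomal regions, a difference of 8.73 points (5.64 to 11.9) from the regions with promoters on 1 strand. Replicate 1 held 68.5% of members and replicate 2 held 58.2%, and 81 members (7.82%) were in neither list. Some members overlap and share 1 replicate region, as tba-1/cox-5B members do at 19.1 in replicate 1. Shares and intervals count each member separately, so members are not independent sites. In the thresholded set all 45 members were in replicate 1 and 44 in replicate 2, the exception being iff-2/F54C9.14. Rebuilt within each replicate's own list of 30000 regions, with its 188 highest nuclear regions as called, the share was 42 of 1520 (2.76%, 2.05 to 3.71) in replicate 1 and 40 of 1426 (2.81%, 2.07 to 3.80) in replicate 2. Regions with promoters on 1 strand had 0.833% (0.650 to 1.07) and 0.732% (0.563 to 0.951) there, lower than the members in either replicate alone.

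The replicates ranked members loosely. Across the 358 members in both lists, which share the pooled list they were found in, the scores had a Spearman rho of 0.40 and a Pearson r of 0.66, and across the 44 thresholded ones 0.31 and 0.55. Both values were lower for regions with promoters on 1 strand. They were 0.21 and 0.55 across the 1296 in both lists, and 0.047 and 0.45 across the 54 thresholded ones. Replicate 1 scored higher at 29 of the 44 thresholded members, with a median ratio of replicate 1 to replicate 2 of 1.17 and a range from 0.43 at cdk-9/hxk-2 to 4.27 at spcs-2/mrg-1.

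**Figure D2:**
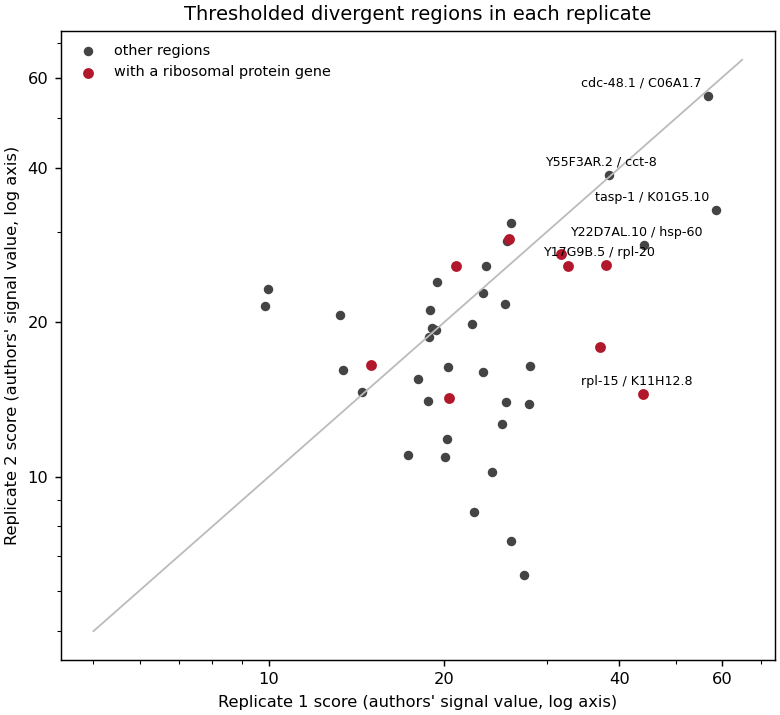
Score of replicate 2 (vertical) against replicate 1 (horizontal), in the authors' signal units on log axes, for the 44 thresholded members in both lists; the line marks equal scores and red points hold a ribosomal protein gene. The cdc-48.1/C06A1.7 region is high in both (56.9 and 55.3), while rpl-15/K11H12.8 has 44 and 14.5.

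Base composition and distance to the 5′ end moved with the result. Mean GC content within 50 bp of the summit was 36.3% ± 10.2 (SD, n = 1036 regions) in members and 33.7% ± 9.20 with promoters on 1 strand (n = 5018), but 48.7% ± 7.89 in the 45 thresholded members and 47.5% ± 8.42 in the 55 thresholded regions with promoters on 1 strand. At a GC content of 50% or more, 22 of 120 members (18.3%, 12.4 to 26.2) were thresholded against 20 of 269 regions with promoters on 1 strand (7.43%, 4.86 to 11.2). Between 40% and 50% the shares were 6.41% (3.92 to 10.3) and 3.12% (2.18 to 4.44), and between 30% and 40% they were 1.99% (0.969 to 4.06) and 0.218% (0.0850 to 0.560). Under 30% they were 0.302% and 0.101%, on 1 and 2 regions. In all 4 GC classes the members had the higher share, with intervals that overlapped between 40% and 50% and under 30%.

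The median distance to the nearest 5′ end was 190 bp (178 to 204) in members and 449 bp (436 to 463) in regions with promoters on 1 strand. The rule fixes much of this gap, since a member has at least 2 ends in reach and most of the others have 1, so it is no result. At over 100 to 250 bp from the nearest 5′ end, 24 of 336 members were thresholded (7.14%) against 1.66% of regions with promoters on 1 strand, and within 100 bp 13 of 301 (4.32%) against 1.12%. Beyond 500 bp the shares were 1.61% and 0.845%. Giving each member the rate of regions with promoters on 1 strand in its own class of GC content and distance came to 19.3 regions, or 1.86%, where 45, or 4.34%, were thresholded.

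The number of promoters limits that comparison. Regions whose summit lay in exactly 2 promoters were thresholded in 30 of 883 members (3.40%, 2.39 to 4.81) and in 6 of 199 regions where both promoters were on the same strand (3.02%, 1.39 to 6.42), so at 2 promoters the first interval lay within the second. Members in 3 or 4 promoters had 15 of 153 (9.80%, 6.03 to 15.6), with 3 same-strand regions to set beside them. The difference between both strands and 1 strand can therefore not be told apart here from a difference in how many promoters hold the summit. By chromosome, 11 of 166 members on IV (6.63%, 3.74 to 11.5) and 13 of 225 on III (5.78%) were thresholded, but 3 of 254 on V (1.18%, 0.402 to 3.41).

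**Figure D3:**
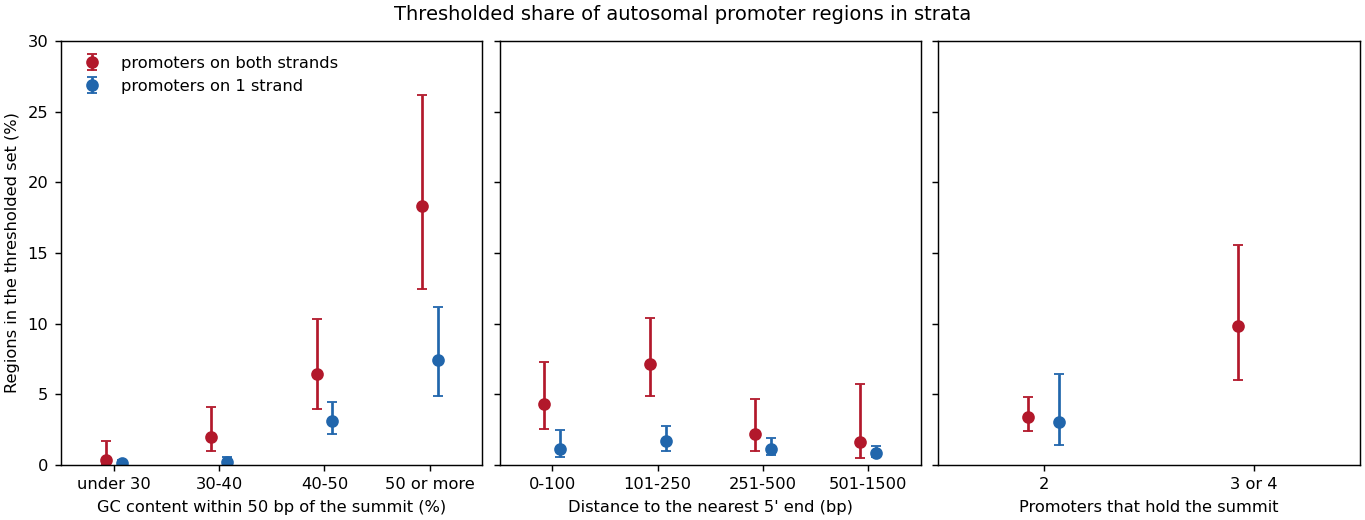
Share of regions in the thresholded set (%, vertical axis) by GC content at the summit, by distance to the nearest 5′ end and by number of promoters holding the summit, with 95% Wilson intervals; red points have promoters on both strands and blue points on 1 strand. At a GC content of 50% or more the shares are 18.3% and 7.43%, and at 2 promoters they are 3.40% and 3.02%; the class of 3 same-strand regions has no point.

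Scores were lower where the 5′ ends lay farther apart. Among the 743 members between 5′ ends, those with over 200 to 500 bp between the ends had a median score of 15.2 (13.5 to 17.3) and 17 of 159 thresholded (10.7%, 6.78 to 16.5). At more than 1000 bp the median was 12.4 (11.9 to 12.9), with 11 of 334 thresholded (3.29%, 1.85 to 5.80), and at over 500 to 1000 bp 13 with 5.78%. In the closest class, up to 200 bp, the median was 17 (13.8 to 18.9) but 1 of 25 was thresholded (4%, 0.710 to 19.5) and 40% were in both replicates. Both replicates held 52.2% of members at over 200 to 500 bp and 31.1% beyond 1000 bp. Mean GC content was 37.8% ± 11.7 (SD, n = 159) and 35.4% ± 10 (n = 334). Within the class of 50% GC or more, 8 of 31 members at over 200 to 500 bp (25.8%, 13.7 to 43.2) and 5 of 33 beyond 1000 bp (15.2%, 6.65 to 30.9) were thresholded, and between 40% and 50% GC 5 of 35 (14.3%, 6.26 to 29.4) and 5 of 72 (6.94%, 3 to 15.2). Between 30% and 40% GC they were 4 of 42 (9.52%, 3.77 to 22.1) and 1 of 107 (0.935%, 0.165 to 5.10). Under 30% GC they were 0 of 51 and 0 of 122. Beyond 1000 bp the share was lower than at over 200 to 500 bp in each class of 30% GC or more, with intervals that overlapped. At over 500 to 1000 bp it was 7 of 26 (26.9%, 13.7 to 46.1) at 50% GC or more. Between 40% and 50% GC it was 4 of 47 (8.51%, 3.36 to 19.9), between 30% and 40% GC 1 of 78 (1.28%) and under 30% GC 1 of 74 (1.35%). In the class of 50% GC or more the share was thus no lower up to 1000 bp.

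The summit lay at varied places along the shared stretch. Among the 743 members the median distance was 204 bp to the nearer 5′ end and 667 bp to the farther, with a median ratio of nearer distance to spacing of 0.30 (0.31 in the 42 thresholded ones, on a scale where the midpoint is 0.5). In the 42 thresholded ones the medians were 159 and 424.5 bp, and 34 (81.0%) lay within 250 bp of the nearer 5′ end. The nearer gene was on the minus strand in 49.0% (45.4 to 52.6) of the 743 and in 57.1% (42.2 to 70.9) of the 42, so neither strand was favoured beyond counting error. At the outer limit of the promoter window, 70 members whose gene on the second strand was 1401 to 1500 bp away had a median score of 13.1, and 60 regions just outside, at 1501 to 1600 bp, had 11.9, with no thresholded region in either.

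**Figure D4:**
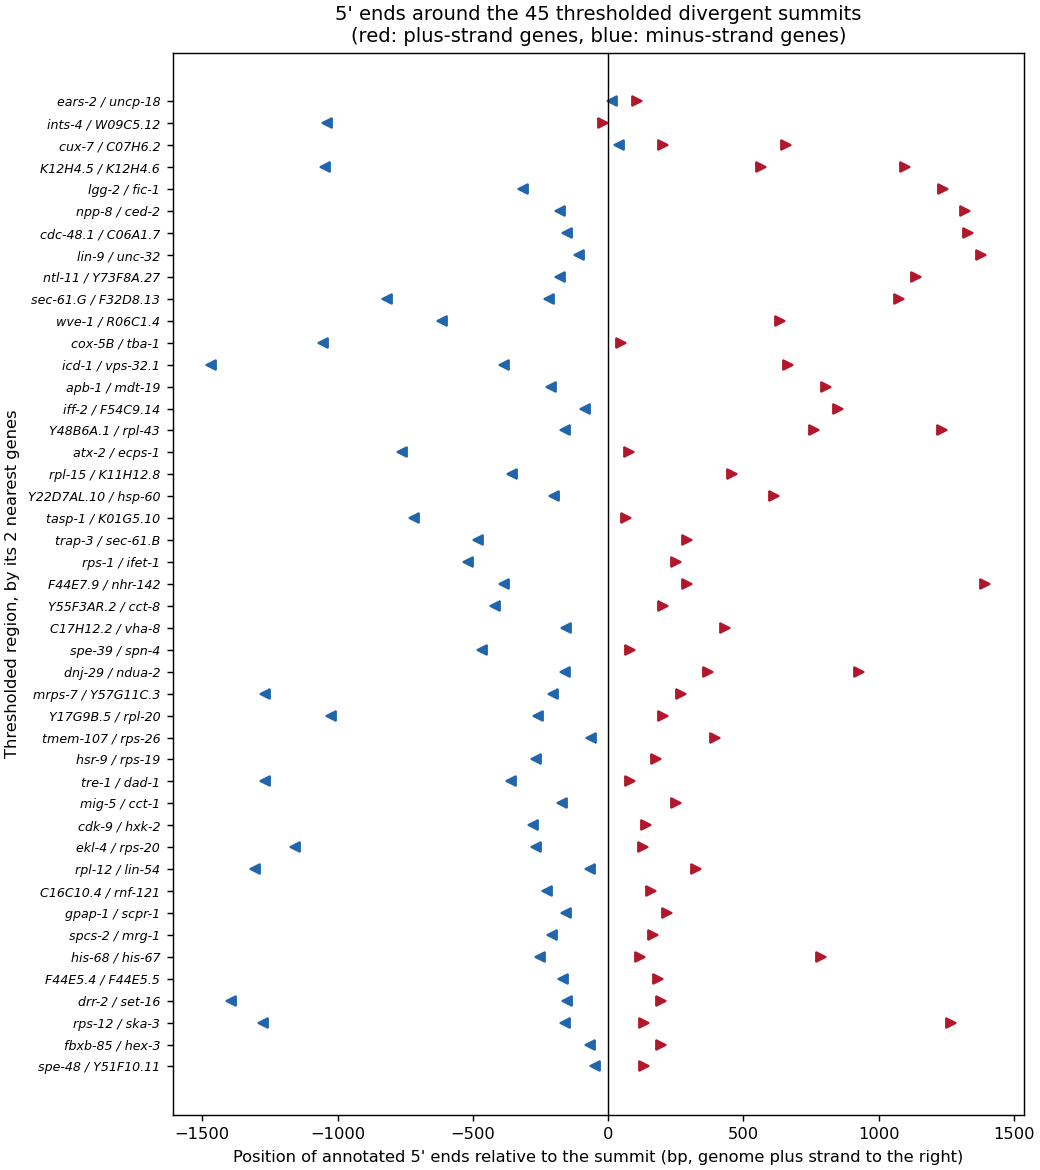
Position of annotated 5′ ends relative to the summit (bp, horizontal axis) for the 45 thresholded members (rows); red triangles point along plus-strand genes and blue ones along minus-strand genes. In 42 rows a blue and a red triangle lie on either side of the summit, pointing away from it.

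Taken from the genes rather than from the regions, 1665 pairs of neighbouring autosomal genes start head to head within 1000 bp of each other, and 388 of them (23.3%, 21.3 to 25.4) had a region's summit between their 5′ ends, 31 of them a thresholded one. Pairs at most 200 bp apart had a region in 25 of 242 (10.3%), those over 200 to 500 bp apart in 155 of 636 (24.4%) and those over 500 to 1000 bp apart in 208 of 787 (26.4%). The thresholded share was highest in the middle class, 17 of 636 (2.67%), against 13 of 787 (1.65%) and 1 of 242. Most head-to-head pairs had no region, and a shorter stretch holds fewer bases in which a summit could be counted.

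The highest member was the region of cdc-48.1, the AAA ATPase (p97 in mammals) that extracts ubiquitinated proteins, with a pooled score of 116.3 and replicate scores of 56.9 and 55.3. It was the highest region on the nuclear chromosomes, lay 153 bp upstream of cdc-48.1 and 1331 bp upstream of C06A1.7, and was 107 bp wide where each of the other 1035 members was 376 bp. The tasp-1/K01G5.10 region followed with 80.9 (58.6 and 33.1), 68 bp upstream of tasp-1, a homologue of the mammalian protease taspase. Replicate 1 was higher there, whereas both replicates were nearly equal at cdc-48.1.

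Genes of protein folding came next. The region between Y55F3AR.2 and cct-8, a subunit of the chaperonin that folds actin and tubulin, scored 79.1 (38.3 and 38.8), and the one between Y22D7AL.10 and hsp-60, the mitochondrial chaperonin, 69.8 (44.1 and 28.3). With cct-1 (42.9, beside mig-5, a Dishevelled homologue) and dnj-29 (37.7), 4 of 59 autosomal chaperonin and heat shock genes (6.78%) had a thresholded member at their promoter, against 0.615% of all autosomal genes as the background. The summit was nearer to the other gene of the pair in 3 of these 4, so which gene it belongs to is unknown. F44E5.4 and F44E5.5, a pair of HSP70 family genes, shared a region of 43.8 (23.3 and 22.9), 167 and 184 bp from their 5′ ends. These genes are close copies, and the handling of reads that fit both is not stated.

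Ribosomal protein genes had the largest count of the named lists, though not the largest share, which MuvB and DREAM had among the lists not added later. Of 79 autosomal genes, 36 (45.6%) had some member at their promoter, where 11.3% of all autosomal genes did, and 9 (11.4%) a thresholded one, where 0.615% did. The regions were those of rpl-20 (66.6, with 38.0 and 25.9 in the replicates), rpl-15 (63.1, with 44 and 14.5), rps-19 (58.9, with 32.6 and 25.8), rps-20 (57.6, with 31.7 and 27.1), rpl-12 (53.3, with 25.9 and 29.0), rps-1 (49.1, with 37.0 and 17.9), rps-12 (41.8, with 20.9 and 25.8), rps-26 (35.2, with 20.4 and 14.2) and rpl-43 (33.7, with 15 and 16.5). All 9 were in both replicates, and rpl-15 and rps-1 were the most unequal, higher in replicate 1. The ribosomal protein gene was the nearest gene in 4, rpl-12 at 68 bp, rps-12 at 133 bp, rps-1 at 251 bp and rpl-15 at 355 bp. A further 3 ribosomal protein genes had a thresholded region with promoters on 1 strand. Earlier results of these data were known when this list was chosen, so its count is no independent evidence.

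The partner genes of these pairs had varied roles. The rpl-12 promoter is shared with lin-54, a DNA-binding subunit of MuvB, at 325 bp, and with tag-115. Another MuvB gene, lin-9, lay 106 bp from a region of 36.5 (24.2 and 10.2) shared with unc-32, a subunit of the vacuolar proton pump, 1378 bp away. Thus 2 of 8 MuvB and DREAM genes (25%) had a thresholded member, in 1 of which the gene was the nearer. The rps-1 region is shared with ifet-1, which encodes the worm eIF4E transporter, at 517 bp, rps-19 with hsr-9, a homologue of mammalian 53BP1, rps-20 with ekl-4, and rps-12 with ska-3, named after a kinetochore component.

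Other genes of protein synthesis and export are again set against 0.615% of all autosomal genes, which a single gene in a list of this size exceeds. The translation factor genes had 1 of 40 (2.5%), iff-2 (an eIF5A; 39.4, with 25.3 in replicate 1 and no region in replicate 2), and the tRNA synthetases 1 of 32 (3.12%), ears-2 (36, with 13.4 and 16.1). The mitochondrial ribosomal proteins had 1 of 70 (1.43%), mrps-7 (44.1, with 28.1 and 16.4), and drr-2/set-16, the latter a histone methyltransferase of the MLL family, scored 43.1. A region of 46.9 (19.4 and 24.0) lay 386 bp from icd-1, the beta subunit of the nascent polypeptide-associated complex, and near vps-32.1, an ESCRT-III component. Genes of entry into the endoplasmic reticulum were put in a list only after the values had been seen, so the count is a description: 6 of 14 (42.9%) had a thresholded member. They were sec-61.G, a translocon subunit (58.7, with 26.1 and 31.2), the signal peptidase genes spcs-3 (55.3, with 25.6 and 28.8) and spcs-2 (34.6, with 27.5 and 6.43), dad-1, an oligosaccharyltransferase subunit (39.6, with 13.2 and 20.7), and trap-3 and sec-61.B, which share 1 region (34.4, with 25.1 and 12.7). The spcs-3 summit was 1096 bp from that gene and nearer to K12H4.5 and K12H4.6.

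Energy and chromatin genes gave smaller counts than ribosomal protein genes, from shorter lists, to be read against 0.615% of all autosomal genes. The respiratory chain list had 3 of 47 (6.38%): cox-5B (44.4, with 23.6 and 25.8; 48 bp from its 5′ end and 1053 bp from that of tba-1, an alpha-tubulin), cyc-2.1 in the rpl-20 region and ucr-11 in the dad-1 region. The vacuolar ATPase list had 2 of 18 (11.1%), vha-8 (45.9, with 18.9 and 21.2) and unc-32. Histones had 2 of 46 (4.35%), his-67 and his-68, which share a region of 40.8 (25.6 and 14) with alg-5, an Argonaute gene; histone genes occur in near-identical copies, so this assignment is uncertain. The cell cycle and replication list had 2 of 53 (3.77%), cdc-48.1 and cdk-9 (37.8, with 9.98 and 23.2), the nuclear pore 1 of 26 (3.85%), npp-8 (38.4), and the RNA polymerase and general factors 1 of 57 (1.75%), mdt-19 (35.9). Of the other regions among the 25 highest, gpap-1/scpr-1 scored 41.5 (28.0 and 13.9) and wve-1/R06C1.4, the former a WAVE actin regulator, 39.4 (18.9 and 18.7).

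The remaining lists differed in how many genes had any member. Proteasome genes had one at 11 of 33 (33.3%) and splicing genes at 18 of 51 (35.3%), where all autosomal genes had 11.3%. None had a thresholded member, and the background of 0.615% also gives less than 1 gene in lists of this size. Of 1275 serpentine receptor genes 74 (5.80%) had a member and none a thresholded one, and of 129 collagen genes 5 (3.88%) had one and none a thresholded one. Nuclear hormone receptors had 17 of 246 and 1 thresholded, nhr-142 (34.9), homeobox ceh genes 3 of 45 and hlh genes 2 of 19 without a thresholded one. Of 17 neurogenic factor genes none had a member. The markers of tissues of the larva had 1 of 20 (neurons), 1 of 8 (body muscle), 1 of 8 (intestine), 1 of 7 (glia) and none of 9 (epidermis), 5 (pharynx) and 14 (germline), with none thresholded. These lists are short. Outside the members, the proteasome, splicing, nuclear hormone receptor, hlh and neuron lists each had 1 gene with a thresholded region with promoters on 1 strand.

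The threshold fell in a continuous range of scores. Just inside were the regions of rpl-43 (33.7, with 15 and 16.5), lgg-2/fic-1 (33.3, with 9.83 and 21.5) and ntl-11/Y73F8A.27 (33.1, with 20.2 and 11.8). Just outside were F57A8.7/F57A8.6 (32.8, with 9.97 and 20.9), nhr-47/dnj-19 (32.7, with 20.6 and 12.5) and dnj-13/F54D5.9 (32.6, with 21.4 and 10.9). In both replicates the values on either side overlapped. Another chaperonin gene, cct-7, followed with 32.5, so counts of a group depend on where the set ends.

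The shares of 6 short words, among them AAAGTT, the known core of MYT1 family sites, differed with the GC content of the regions. Each was sought on both strands within 50 bp of the summit. Earlier results of these data were known when the 6 words were chosen, so their shares are no independent evidence. AAAGTT was in 166 of 1036 members (16%, 13.9 to 18.4) and 19.6% of regions with promoters on 1 strand (20.1% of all autosomal regions), and in 2 of 45 thresholded members (4.44%, 1.23 to 14.8), against 16.5% (14.4 to 19) of the other members, with intervals that just overlap. AAAGTT was also in 2 of 55 thresholded regions with promoters on 1 strand (3.64%) and in 0 of 41 thresholded regions in no promoter. Its share falls with GC content in every class: 24.8% of members under 30% GC held it and 5% of those at 50% or more, where 2.23% of regions with promoters on 1 strand did. TATAAA was in 12.9% of members and of all autosomal regions alike, and in 1 of 45 thresholded members.

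The C-rich word CCGCCC was in 10 of 45 thresholded members (22.2%, 12.5 to 36.3), 3.83% of the other members, 10.9% (5.10 to 21.8) of thresholded regions with promoters on 1 strand and 2.48% of all autosomal regions. GCGCGA was in 4 of 45 (8.89%), 3.23% of other members and 1.56% of all autosomal regions, and CGCGCA, which can overlap it, in 7 of 45 (15.6%), 4.14% and 1.88%. AGAGAG, a GA repeat, was in 8 of 45 (17.8%), 6.16% and 5.18%, below the 25.5% of thresholded regions with promoters on 1 strand and the 39.0% of thresholded regions in no promoter. GCGCGA and CGCGCA were in 12.7% and 16.4% of thresholded regions with promoters on 1 strand, and in 14.6% and 12.2% of thresholded regions in no promoter. For each of these 4 words the intervals of thresholded members and of thresholded regions with promoters on 1 strand overlapped. The intervals of thresholded and other members also overlapped for GCGCGA. Within the class of 50% GC or more, 22 thresholded and 98 other members had nearly the same share of GCGCGA (9.09% and 9.18%), of AAAGTT (4.55% and 5.10%) and of AGAGAG (13.6% and 15.3%). CGCGCA was in 18.2% (7.31 to 38.5) and 13.3% (7.92 to 21.4), and CCGCCC in 31.8% (16.4 to 52.7) and 18.4% (11.9 to 27.2), with intervals that overlapped for both. Between 40% and 50% GC there were 15 thresholded and 219 other members. There AGAGAG was in 33.3% (15.2 to 58.3) and 11.0% (7.48 to 15.8), and CCGCCC in 20% (7.05 to 45.2) and 4.57% (2.50 to 8.20). CGCGCA was in 13.3% and 7.31%, GCGCGA in 6.67% and 5.48%, and AAAGTT in 6.67% and 9.13%. The intervals overlapped for each word in that class too.

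**Figure D5:**
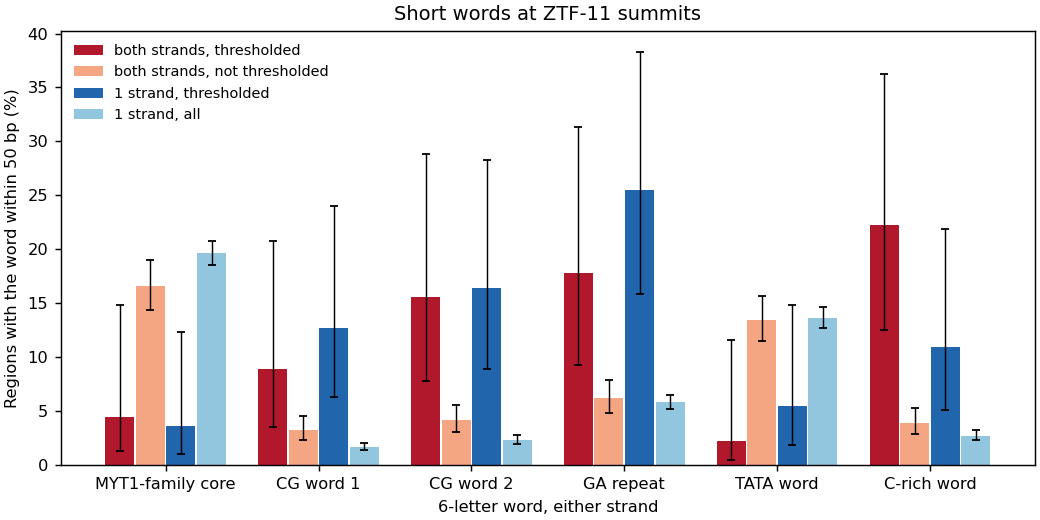
Share of regions (%, vertical axis) with each 6-letter word on either strand within 50 bp of the summit, with 95% Wilson intervals. The words are the MYT1-family core, the 2 words of C and G in the order the text gives them, the GA repeat, the TATA word and the C-rich word. Dark bars are thresholded and light bars the rest of both-strand regions or all 1-strand regions; the C-rich word is in 22.2% of thresholded members and 3.83% of the others.

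Longer words recurred at some thresholded members, among them a part of the ribosomal protein ones. They were picked after the windows had been read, from over 100 words of 8 letters found in 5 or more thresholded members, by a choice made to single out words rare elsewhere, so their shares carry no test. CATACACT (AGTGTATG on the other strand), within 100 bp of the summit, was in 5 of 45 thresholded members and 1 of the 991 others, in none of 55 thresholded regions with promoters on 1 strand, in 2 of 41 thresholded regions in no promoter and in 70 of 16790 autosomal regions (0.417%). GCATACAC, which overlaps it, was in 5 of 45, 1 of 991 and 54 of 16790 (0.322%), and CGCTCCAC was in 7 of 45, 20 of 991 and 89 of 16790 (0.530%). The members with CATACACT were those of rps-1, rpl-15, rpl-20, tasp-1 and cox-5B, and CGCTCCAC was at the first 4 of these as well as at rpl-12, lin-9 and gpap-1. The thresholded members of rps-19, rps-20, rps-12, rps-26 and rpl-43 had none of these words. In the windows shown above, rpl-15 has CATACACT in 2 places on 1 strand, followed by CGCTCCAC, and tasp-1 has both words in the same order. The rps-1 region is shown for comparison, from 100 bp before to 100 bp past the summit, at chrIII:4475567-4475767 in the same notation, a window that overlaps the annotated ncRNA genes F56F3.10 and F56F3.11. There CATACACT stands on both strands around a single base, an inverted repeat, with CGCTCCAC on the minus strand beside it.
rps-1/ifet-1: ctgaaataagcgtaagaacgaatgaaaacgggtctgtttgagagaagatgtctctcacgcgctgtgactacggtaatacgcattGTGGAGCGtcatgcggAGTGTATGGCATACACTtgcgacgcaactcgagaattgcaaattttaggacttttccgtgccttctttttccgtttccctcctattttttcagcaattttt

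Annotated piRNA genes were near fewer summits than in the other classes, and for other noncoding RNA genes the intervals overlapped. A tRNA, snoRNA, snRNA, miRNA or piRNA gene lay within 250 bp of 33 members (3.19%, 2.28 to 4.44), against 4.74% of regions with promoters on 1 strand and 8.68% of regions in no promoter. A piRNA gene was near 16 members (1.54%, 0.953 to 2.49), against 3.35% (2.88 to 3.88) and 7.37% (6.89 to 7.88). The piRNA shares were not split by chromosome, over which the classes were spread unequally. Chromosome IV held 166 of 1036 members, 983 of 5018 regions with promoters on 1 strand and 2629 of 10736 regions in no promoter. The shares for snoRNA genes were 0.772%, 0.498% and 0.494%, for tRNA genes 0.483%, 0.458% and 0.531%, for miRNA genes 0.290%, 0.159% and 0.186%, and for snRNA genes 0.0965%, 0.299% and 0.158%, with intervals of members that overlapped those of both classes for each of these 4 kinds. Among the 45 thresholded members 2 had such a gene, both snoRNA genes beside a ribosomal protein gene: F39B2.14 in the tmem-107/rps-26 region and F54E7.10 in the rps-12/ska-3 region. Among thresholded regions with promoters on 1 strand 8 of 55 had one, 5 of them snRNA genes.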

How the data were processed

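ZTF-11 ChIP-seq of 2 biological replicates, grouped by the replicate number in the labels, gave 1 group and no contrast. Per the file headers (the notes deposited with the samples), the authors called regions with a control on each replicate and on both pooled, and derived the thresholded set from these by IDR. Neither labels nor files give the aligner, caller, versions, IDR threshold or depth per sample. The deposited score is the authors' signal value per region, and the deposited summit offset, in bp, gave the summit. Only the ce11 lists were used: 30000 regions per replicate, 20223 pooled and 210 thresholded peaks. They were read on WBcel235, Ensembl release 115, whose chromosome names and lengths fit the lists.

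A region counted as thresholded when its summit lay in a thresholded peak. Shares have 95% Wilson intervals, differences Newcombe intervals and medians binomial order-statistic intervals, all of counting error only. No p-value is given, because regions are not replicates. Members, gene lists and the 6 short words were chosen with earlier results of these data known. The text names the 25 members of highest score, up to 6 thresholded members per list (all 9 for ribosomal proteins, chosen after their values were seen) and the 3 on either side of the threshold; cct-7 and the extra members named for a word or a replicate ratio were also chosen after their values were seen. Steps were tested on simulated data. The software was scipy 1.17.1, numpy 2.4.6 and pandas 2.3.3 under Python 3.11.15, with figures by matplotlib 3.10.9. Alternatives covered the promoter window, the position between 5′ ends, the call, each replicate alone, the word window, the nearest gene and the pair spacing.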

Additional observations from a re-analysis of the deposited data

How the results depend on the processing

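Alternatives were run for the thresholded share, its difference, the median score, both replicates, geometry and GC content. They were also run for the 6 short words, the gene lists and the pairs. None of these changed direction apart from gene lists counted by the nearest gene only. There the RNA polymerase and vacuolar ATPase lists fell from above the background of 0.615% to 0. Strata, noncoding genes and 8-letter words had no alternative, and splits of spacing and words by GC content were added after seeing the data. A promoter of 1000 bp upstream to 250 bp downstream gave a median score of 13.1, 38.8% of members in both replicates, 78.3% between the 5′ ends and 143 bp to the nearest one. With 500 bp upstream to 100 bp downstream these were 14.8, 45.6%, 82.6% and 108 bp, and the thresholded share rose to 7.94%, 5.71 points above promoters on 1 strand. Keeping the members between 5′ ends gave a median of 13 and 38.4% in both replicates. Only the nuclear thresholded peaks above their median score gave 2.12% and 1.59 points, and the highest 10000 regions of each replicate left 17.1% in both. Leaving out either replicate gave a thresholded share of 2.76% to 2.81%, a difference of 1.93 to 2.07 points, 66.4% to 67.3% between the 5′ ends and 211 to 224 bp. The lower shares there follow from longer lists with the same number of calls; the cause of the other shifts was not tested.

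Members minus regions with promoters on 1 strand, within 25 bp of the summit, differed by -0.514 points (-2.39 to 1.60) for AAAGTT, 0.438 (-0.157 to 1.34) for GCGCGA and 0.592 (-0.196 to 1.68) for CCGCCC, intervals that hold 0, and within 100 bp by -6.96 for AAAGTT, 4 for CGCGCA and -3.83 for TATAAA. Counting only the nearest gene left 4 ribosomal protein genes, 1 each of the chaperonin, respiratory chain, histone and MuvB lists and 0 of RNA polymerase, vacuolar ATPase and nuclear hormone receptors. Pairs at most 500 bp apart had a region in 20.5%. No paired analysis was possible because there is 1 group. Depth is unknown, so whether a head-to-head pair without a region lacks ZTF-11 or was not detectable cannot be told apart.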
